A study of Mus musculus with 6 samples.

Results

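The chemokines measured here are 10 genes: Ccl2, Ccl6, Ccl7, Ccl8, Ccl9, Ccl12, Cxcl9, Cxcl10, Cxcl12 and Cxcl16. They were chosen by name, and every array probe whose RefSeq accession maps to one of these symbols was taken, which gave 12 probes of the 39429 non-control probes on the array. The array names 20659 genes in all. Cxcl9 and Cxcl12 have more than 1 probe. Total RNA of heart ventricles from female C57BL/6N mice aged 21 weeks was labelled with Cy3 and hybridised to 1-colour Agilent arrays, 1 sample per array. The groups were mice whose sleep had been fragmented for 5 weeks (arrays SF 1, SF 2 and SF 3) and undisturbed control mice (control 1, control 2 and control 3). Neither group carries a transgene or a drug in the labels. The question was whether these signals for leukocyte recruitment differ in the heart after prolonged sleep fragmentation. The labels do not say whether each array is a different mouse, and the p-values below measure no more than the variation among these arrays, part of which may be technical.

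Chemokines are small secreted proteins that bind G protein-coupled receptors and direct the movement of leukocytes. In the heart, ligands of Ccr2 draw monocytes from the blood, ligands of Cxcr3 draw T cells and natural killer cells, and Cxcl12 acts on Cxcr4 in vessels, stromal cells and leukocytes without needing inflammation. Transcription of many inflammatory chemokine genes is switched on by NF-kappaB or by the transcription factors that interferons activate.

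None of the chemokine genes passed the test over all probes, and for 8 of the 10 probes compared the within-group spread was above that of the median probe. Ccl2 had the smallest p of the 8 genes that could be compared, with a mean 1.41-fold lower in the sleep fragmented hearts. Ccl12 stood above background in control 2 and control 3 and in no sleep fragmented heart. Control 2 had the highest level of 5 of these 8 genes. Levels below are log2 processed signals minus the 75th percentile of the array, so a difference of 1 is 2-fold. A level belongs to 1 probe and is not set against that of another probe.

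The number of probes called well above background ran from 23341 (59.2%) to 28631 (72.6%) per array. The 75th percentile of signal was 122.7 on SF 1 and 203.9 to 251.7 on the others. The labelled tissue was checked with 4 markers of ventricular muscle, which were well above background on all 6 arrays, and the level of Myl2, the ventricular myosin light chain, was 6.77 to 7.60. The atrial light chain gene Myl7 stood at 3.56 on SF 2 and 2.51 on control 2, at -1.18 and -1.28 on SF 3 and control 3, and at -2.81 and -3.26 on SF 1 and control 1. Myl4, also an atrial light chain gene, stood at 7.46 and 7 on SF 2 and control 2. It stood at 4.42 and 4.03 on SF 3 and control 3, against -0.05 and -0.12 on SF 1 and control 1. The ventricle label therefore goes with very different atrial marker levels, highest on SF 2 and control 2 and lowest on SF 1 and control 1. All sleep fragmented arrays came from 1 scan and all controls from another, so scan and group cannot be told apart in any difference given here.

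Of the 12 chemokine probes, 10 were well above background on all 6 arrays and entered the fit of 25228 probes. They cover 8 genes, while the single probes of Ccl12 and Cxcl10 did not pass the filter on dim probes. By limma with Benjamini-Hochberg adjustment, 0 of the 10 chemokine probes passed an adjusted p of 0.05, as did 0 of all 25228 probes (0% called; smallest adjusted p 0.552). An unadjusted p under 0.05 was reached by 1 chemokine probe, that of Ccl2, and by 735 probes in all (2.91%). With a fold of at least 1.5 added, 0 chemokine probes remained against 486 (1.93%). The arrays of the groups overlapped for every chemokine probe in the fit, so 0 of 10 were separated, where 7.27% of all probes were (1833). Read against these shares, counts of 0 or 1 among 10 probes do not set the chemokines apart. Of the 8 genes, 6 had a lower mean in the sleep fragmented group, with a median log2 difference of -0.21, and with quantile normalization or median scaling 7 of the 8 were lower. In the main scaling, 41.3% of all 14555 genes compared were lower and the median was 0.05. The median over all kept probes was 0 with quantile normalization and -0.13 with median scaling. Ccl8, the gene that turned there, lay at -0.02 and -0.03 relative to those medians.

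**Figure D1:**
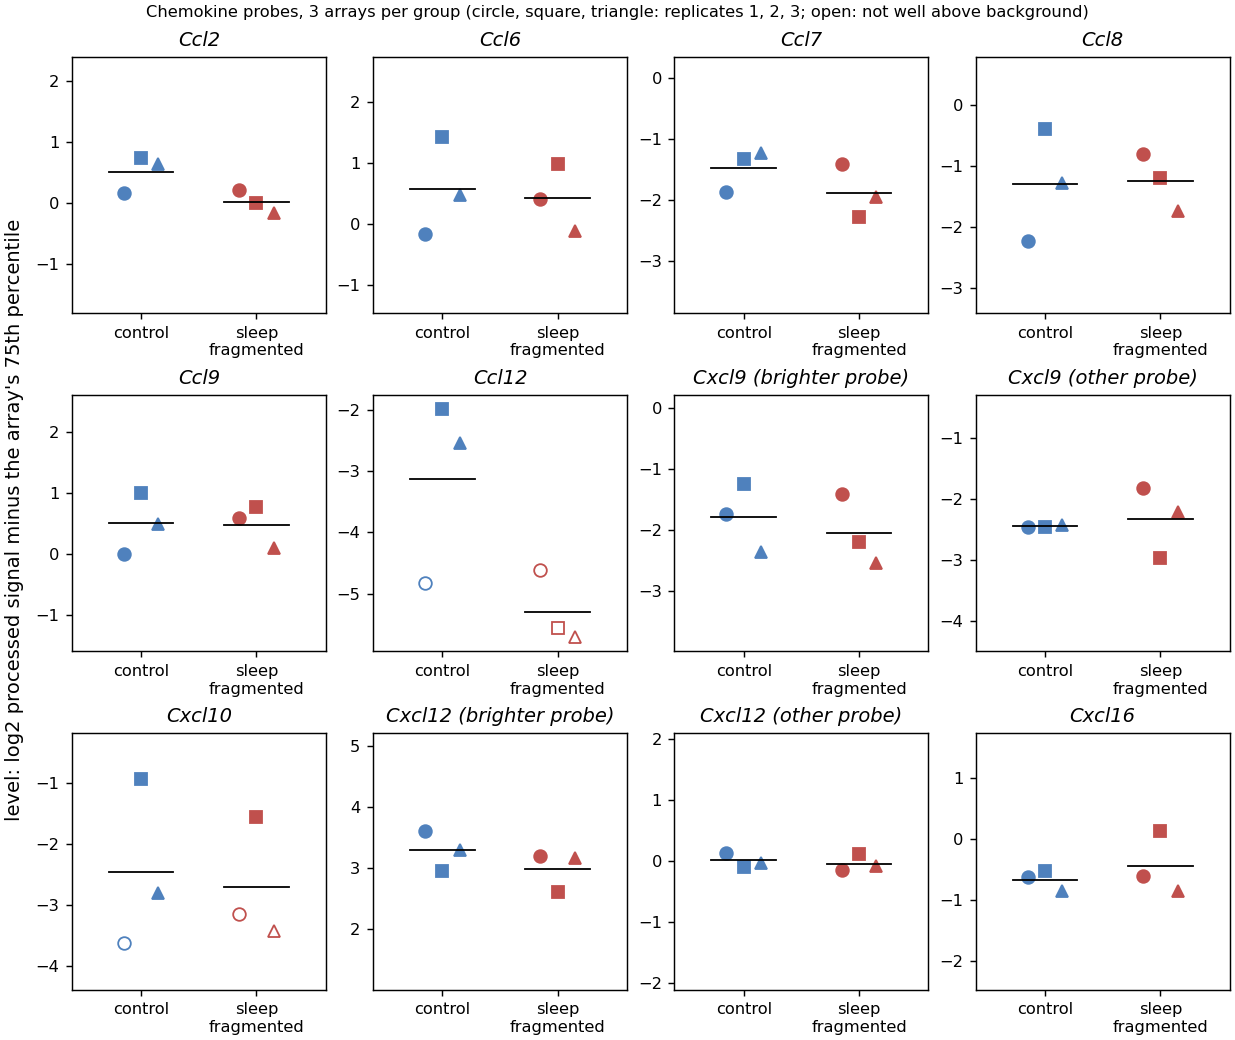
Level of each chemokine probe (log2 processed signal minus the array's 75th percentile) in the 3 control arrays (blue) and the 3 sleep fragmented arrays (red). Circles, squares and triangles are replicates 1, 2 and 3, lines are group means, and open symbols are arrays on which the probe was not well above background. The groups overlap in all 12 panels, and control 2 is the highest array for Ccl2, Ccl6, Ccl8, Ccl9, Ccl12, Cxcl10 and the brighter Cxcl9 probe.

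The ligands of Ccr2, the receptor that brings monocytes out of the bone marrow and into tissue, had lower means after sleep fragmentation. Ccl2 stood at 0.21, 0 and -0.16 on SF 1, SF 2 and SF 3 and at 0.16, 0.74 and 0.64 on control 1, control 2 and control 3. Control 2 and control 3 were the high arrays, and control 1 lay inside the sleep fragmented range, so the groups overlap. The group means were 0.01 ± 0.19 and 0.51 ± 0.31 (SD, n = 3 each), a log2 difference of -0.50 ± 0.21 (SE; 95% interval -0.98 to -0.01). The unadjusted p was 0.0447 and the adjusted p 0.938 by limma, so Ccl2 did not pass, and 635 probes had a p at or below it. With each array left out in turn the difference lay between -0.67 and -0.39, and the unadjusted p was above 0.05 without SF 2, SF 3, control 2 or control 3.

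The Ccl2 probe was printed 10 times on each array, which shows how far spots of the same sample differ. The spots of 1 array had a median SD of 0.073, while the SD between arrays was 0.185 in the sleep fragmented group and 0.307 in the controls. On control 1 the spots ran from 0.05 to 0.29, and on SF 1 the 8 spots that were not outliers ran from 0.16 to 0.27. The spots of control 2 (0.61 to 0.82) and control 3 (0.53 to 0.76) lay above every spot of the other 4 arrays. Spots of 1 array share their RNA, labelling, hybridisation and scan, so their SD covers spot error alone and leaves out the other technical sources of a difference between arrays.

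**Figure D2:**
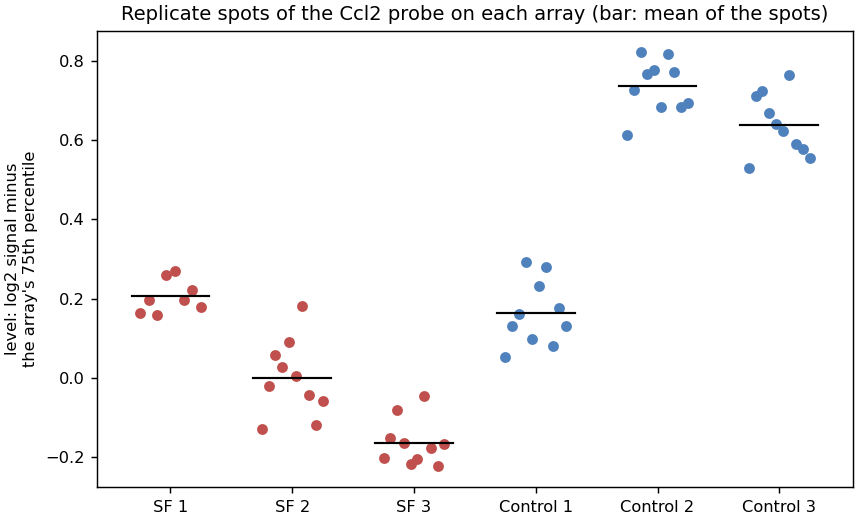
Replicate spots of the Ccl2 probe on each array, as log2 signal minus the array's 75th percentile, with a bar at the mean of the spots (sleep fragmented arrays in red, controls in blue; 8 spots used on SF 1 and 10 on the others). Control 2 and control 3 lie apart from the rest, and control 1 lies among the sleep fragmented arrays.

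Ccl7, which shares Ccr2 with Ccl2 and lies next to it on chromosome 11 with 0 protein-coding genes between them, followed the same arrays. Its levels were -1.42, -2.29 and -1.96 on SF 1, SF 2 and SF 3 and -1.88, -1.33 and -1.24 on the controls. SF 1 lay in the control range and control 1 in the sleep fragmented range. The log2 difference was -0.41 ± 0.27 (SE; 95% interval -1.02 to 0.20), with an adjusted p of 0.938 by limma. After each gene was centred on its mean over the 6 arrays, Ccl2 and Ccl7 differed by 0.21 (root mean square over the 6 arrays), the smallest distance of any pair of the 8 genes.

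The probe of Ccl12, a rodent ligand of Ccr2, was dim. Its levels were -4.62, -5.56 and -5.72 on SF 1, SF 2 and SF 3 and -4.83, -1.98 and -2.54 on the controls, and it was well above background on control 2 and control 3 alone. As processed signals on the linear scale, those 2 arrays read 61.4 and 35.6 and the other 4 between 3.85 and 8.85. Set against the lowest level at which probes of each sleep fragmented array were called well above background (mean -3.23), the control mean of -3.12 was at least 1.08-fold higher, while the measured sleep fragmented mean was -5.30. Of the controls 2 of 3 measured the probe, and control 1 enters that mean at a value below background, so 1.08-fold is no strict minimum. When dim probes were kept, the log2 difference was -2.18 ± 0.69 (SE) with an unadjusted p of 0.0129 and an adjusted p of 0.83 by limma over 39428 probes. That value rests on 4 arrays below background and is not a measured fold. Control 2 and control 3 were thus the high arrays for all of Ccl2, Ccl7 and Ccl12.

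Ccl8, which in the mouse signals through Ccr8 and attracts T helper cells of the allergic type, was spread widely in both groups. It stood at -0.81, -1.19 and -1.73 on SF 1, SF 2 and SF 3 and at -2.23, -0.40 and -1.27 on the controls. The lowest and the highest array were both controls. Sleep fragmented minus control, the log2 difference was 0.05 ± 0.43 (SE; 95% interval -0.91 to 1.02; adjusted p = 0.988 by limma). Its sign turned to -0.02 with quantile normalization and -0.16 with median scaling.

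Ccl6 and Ccl9 are rodent chemokines made largely by macrophages and other myeloid cells, and both act on Ccr1. The genes are neighbours on chromosome 11, with 0 protein-coding genes between them, and their levels ran close together across the arrays (root mean square distance 0.24 after centring). To let their start regions be compared, the 250 bases upstream of each start are given here (RefSeq, GRCm38.p6; Ccl6 at chr11:83593088-83593337 and Ccl9 at chr11:83578637-83578886, both on the minus strand, written 5′ to 3′). Capitals mark a match to the NF-kappaB motif.
Ccl6: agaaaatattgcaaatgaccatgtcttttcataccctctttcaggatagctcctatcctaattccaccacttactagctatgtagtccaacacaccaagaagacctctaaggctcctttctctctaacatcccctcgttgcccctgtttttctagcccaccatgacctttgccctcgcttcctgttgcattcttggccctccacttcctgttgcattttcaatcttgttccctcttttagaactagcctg
Ccl9: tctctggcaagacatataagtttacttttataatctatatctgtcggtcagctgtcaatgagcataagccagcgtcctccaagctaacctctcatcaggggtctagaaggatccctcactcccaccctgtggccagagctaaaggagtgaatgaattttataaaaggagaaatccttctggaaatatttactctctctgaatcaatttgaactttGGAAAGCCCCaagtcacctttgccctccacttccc
The only match in these windows to the motifs searched lies in Ccl9, 35 to 26 bases upstream of its start, read on the strand opposite to the gene. An NF-kappaB match was found in 7.3% of the 32851 promoter windows of the same length, so a match of this kind is common.

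Ccl6 stood at 0.41, 0.99 and -0.12 on SF 1, SF 2 and SF 3 and at -0.16, 1.43 and 0.47 on the controls. The second replicate was the highest of both groups, and the ranges almost coincide. For Ccl6 the log2 difference was -0.15 ± 0.41 (SE; 95% interval -1.08 to 0.78; adjusted p = 0.963 by limma). Ccl9 stood at 0.60, 0.77 and 0.10 on SF 1, SF 2 and SF 3 and at 0.01, 1.01 and 0.50 on the controls. It had the same highest array in each group, and its log2 difference was -0.02 ± 0.29 (SE; 95% interval -0.66 to 0.63; adjusted p = 0.993 by limma). Both genes turned to a positive difference without control 2, at 0.28 for Ccl6 and 0.23 for Ccl9.

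Cxcl9 and Cxcl10 bind Cxcr3 on activated T cells and natural killer cells and are induced by interferons. They lie close together on chromosome 5, with 1 protein-coding gene between them. The 250 bases upstream of each start are shown because the interferon and NF-kappaB motifs searched occur in one and not in the other (RefSeq, GRCm38.p6; Cxcl9 at chr5:92328080-92328329 and Cxcl10 at chr5:92348890-92349139, both on the minus strand, written 5′ to 3′). In Cxcl10, capitals mark, in order, 1 core of the interferon-stimulated response element (GAAA, any 2 bases, GAAA), 1 NF-kappaB match and a run of overlapping NF-kappaB matches.
Cxcl9: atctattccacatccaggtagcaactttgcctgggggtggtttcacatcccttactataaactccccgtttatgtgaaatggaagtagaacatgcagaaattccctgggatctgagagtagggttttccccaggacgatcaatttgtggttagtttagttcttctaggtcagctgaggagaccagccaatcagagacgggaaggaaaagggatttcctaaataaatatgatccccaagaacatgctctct
Cxcl10: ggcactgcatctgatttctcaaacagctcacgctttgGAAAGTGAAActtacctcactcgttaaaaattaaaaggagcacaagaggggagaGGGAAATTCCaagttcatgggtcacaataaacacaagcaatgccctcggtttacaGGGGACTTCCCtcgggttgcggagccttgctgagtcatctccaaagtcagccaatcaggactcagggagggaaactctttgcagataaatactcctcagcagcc
The response element core of Cxcl10 lies 213 to 204 bases upstream of the start, and the NF-kappaB matches lie 159 to 150 and 104 to 94 bases upstream. The core was found in 3.0% of the promoter windows. The gamma-activated site, TTCNNNGAA, was found in 7.0% of windows and in none of the 7 chemokine windows held in the table (Ccl6, Ccl8, Ccl9, Ccl12, Cxcl9, Cxcl10 and Cxcl12). All motifs were searched on both strands, and the absence of a match says only that these letters are not in the window.

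On its brighter probe Cxcl9 stood at -1.42, -2.20 and -2.54 on SF 1, SF 2 and SF 3 and at -1.75, -1.25 and -2.36 on the controls. On this scale SF 1 and control 2 were the high arrays. As processed signals, SF 1 read 46 and SF 2 47.9, against 74.9 on control 1 and 102 on control 2. The lowest level called well above background was -2.58 on SF 1 and -3.84 to -3.17 on the others. The log2 difference of the brighter Cxcl9 probe was -0.27 ± 0.35 (SE; 95% interval -1.06 to 0.53; adjusted p = 0.943 by limma), and -0.05 with normexp background correction. Its other probe gave -1.82, -2.97 and -2.21 on the sleep fragmented arrays and -2.45, -2.46 and -2.42 on the controls. The controls lay close together there, and the difference had the opposite sign at 0.11 ± 0.28 (SE; adjusted p = 0.96 by limma). The probes of Cxcl9 therefore give no common direction.

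The Cxcl10 probe was well above background on SF 2, control 2 and control 3 alone. It stood at -3.15, -1.55 and -3.42 on SF 1, SF 2 and SF 3 and at -3.63, -0.94 and -2.81 on the controls. The second replicate of each group was its highest array, and no fold is given because 3 of the 6 arrays were not well above background. With dim probes kept, the log2 difference was -0.25 ± 0.72 (SE; unadjusted p = 0.742 and adjusted p = 0.936 by limma).

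Cxcl12 retains and guides stem cells, lymphocytes and endothelial cells through Cxcr4, and Ackr3 removes it from the tissue. Its brighter probe stood at 3.19, 2.61 and 3.17 on SF 1, SF 2 and SF 3 and at 3.61, 2.96 and 3.29 on the controls. SF 2 was the lowest array, control 1 the highest, and the groups overlap. Their means differed by -0.29 ± 0.24 (SE, log2; 95% interval -0.84 to 0.26; adjusted p = 0.938 by limma). Within replicate numbers 1, 2 and 3 the sleep fragmented array was the lower one, with log2 differences of -0.42, -0.35 and -0.11. Its other probe, designed on a different RefSeq transcript, lay between -0.15 and 0.14 on all 6 arrays, with a difference of -0.05 ± 0.18 (SE; 95% interval -0.45 to 0.36; adjusted p = 0.972 by limma). This was the steadiest of the chemokine probes, with a within-group SD of 0.13 that lies at percentile 10 of all kept probes.

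Cxcl16, a membrane-bound chemokine of macrophages and endothelium that is shed by Adam10 and Adam17 and binds Cxcr6, had the largest positive difference of the 8 genes. It stood at -0.60, 0.13 and -0.85 on SF 1, SF 2 and SF 3 and at -0.62, -0.52 and -0.84 on the controls. SF 2 alone was above the control range. The log2 difference was 0.22 ± 0.26 (SE; 95% interval -0.37 to 0.82; adjusted p = 0.938 by limma), and without SF 2 it was -0.06.

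**Figure D3:**
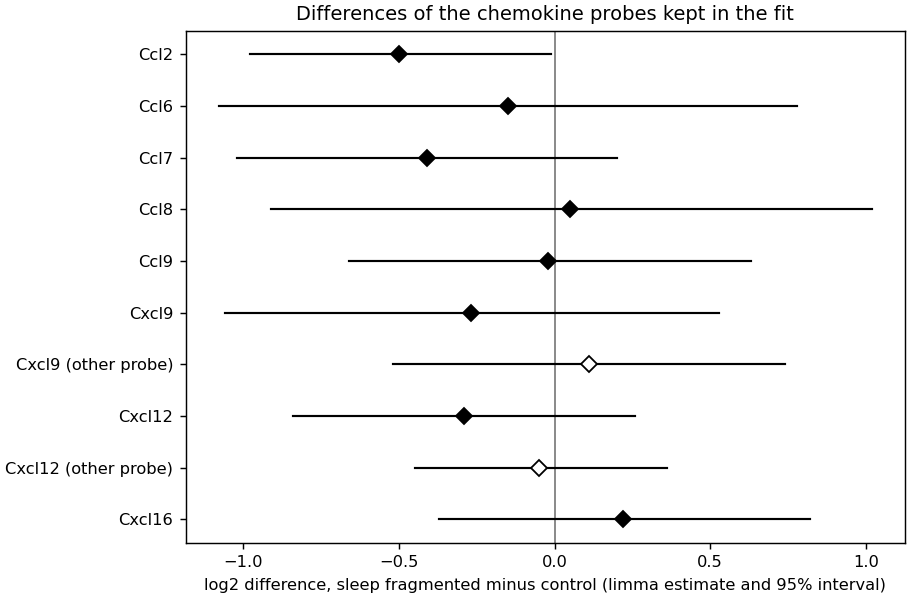
Log2 difference between sleep fragmented and control hearts (sleep fragmented minus control) for the 10 chemokine probes in the fit, with the limma 95% interval. Filled symbols are the probes that stand for a gene and open ones the other probes; 1 interval, that of Ccl2, ends below 0 (-0.01) before adjustment for the number of probes.

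The chemokines differed among themselves in how far they varied within a group. The pooled within-group SD ran from 0.13 for the dimmer Cxcl12 probe to 0.73 for Ccl8, with a median of 0.40, against a median of 0.27 over all kept probes. It was above that median for 8 of the 10 probes. Ccl8 and Ccl6 lay at percentile 98 of all kept probes, and the brighter Cxcl9 probe at percentile 95. Ccl2 was close to the middle, at percentile 45.

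Over the 8 genes, the mean level after centring each gene was 0.15, -0.02 and -0.38 on SF 1, SF 2 and SF 3 and -0.23, 0.46 and 0.03 on the controls. Control 2 was highest for Ccl2, Ccl6, Ccl8, Ccl9 and Cxcl9, and it lay above the gene's own mean for 7 of the 8. SF 3 and control 1 were each the lowest array for 3 genes and SF 2 for 2. Sleep fragmented minus control, this mean differed by -0.17 over all arrays and by 0.02 without control 2, when 3 of the 8 differences were negative.

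A barcode field in the files takes 3 values, each shared by 1 array of either group and equal to the replicate number; whether it marks a slide is not given. For 6 genes the sign of the difference turned between number 1 and the others, while the brighter Cxcl12 probe was negative in all 3. Within number 1 the sleep fragmented array was the higher one for Ccl2 (0.04), Ccl6 (0.58), Ccl7 (0.46), Ccl8 (1.42), Ccl9 (0.59) and Cxcl9 (0.33). For the same genes it was the lower one within numbers 2 and 3, with Ccl2 at -0.74 and -0.80, Ccl7 at -0.97 and -0.72 and Ccl8 at -0.79 and -0.47. For Cxcl9 this holds on the brighter probe. Its other probe gave 0.63, -0.51 and 0.21 within numbers 1, 2 and 3. The low control in this pattern was control 1, except for Cxcl9, where control 3 was the lowest (-2.36, against -1.75 on control 1). The farthest pairs of genes after centring were Ccl6 with Cxcl12 (0.82) and Ccl8 with Cxcl12 (0.81), since Cxcl12 was highest on control 1, where Ccl6 and Ccl8 were lowest.

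Genes whose levels ran closest to a chemokine across the 6 arrays were sought among 13865 named genes by the root mean square distance after centring, for the chemokines that spanned at least 1 log2 unit. Closest to Ccl7 was Gbp7, an interferon-induced GTPase gene (0.05), then Vsx1 (0.10) and Hfm1 (0.11). Closest to Ccl6 were Panx1, a channel gene (0.10), Pi16 (0.14) and Ifi27, an interferon-induced gene (0.14). Close to Ccl8 were the complement factor gene Cfb (0.18) and the C-type lectin gene Clec4d (0.18). Cxcl9 was followed by Trank1 (0.18), Irak2 (0.18) and Trpv2 (0.21), and Cxcl12 by Barhl1, Lcn6 and Sigirr (0.06 each). These distances describe 6 arrays and carry no test.

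**Figure D4:**
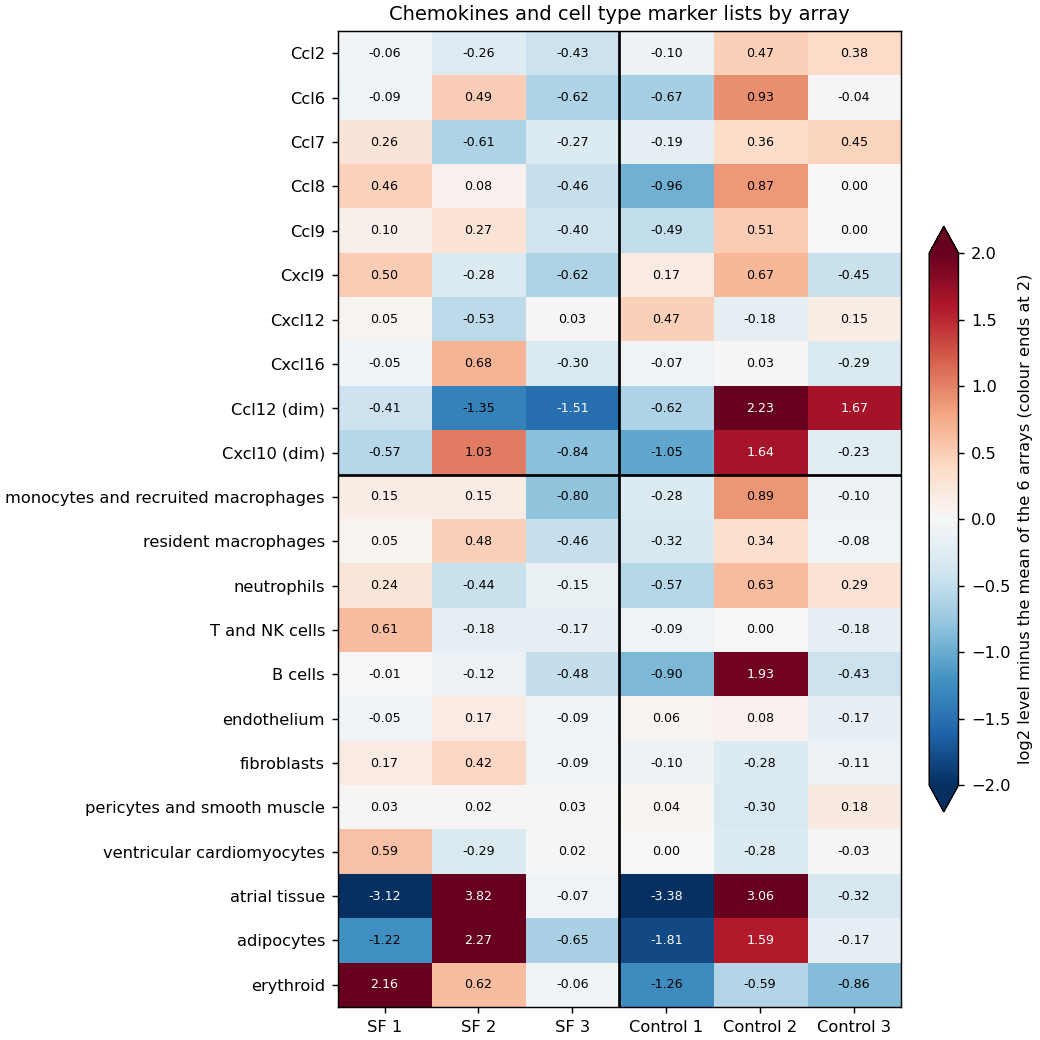
Chemokine levels and the mean of each cell type marker list on each array, both as log2 level minus the mean of the 6 arrays (SF, sleep fragmented; colours end at 2). Control 2 has high values of most chemokines and a high mean of the B cell markers, and SF 2 and control 2 share high means of the atrial and adipocyte markers.

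In whole ventricle, fewer cells of a type and less RNA per cell cannot be told apart, so marker genes of the cells that make or answer chemokines are given beside the chemokines. For monocytes and recruited macrophages, 5 of 7 markers passed the filter, and their mean after centring was 0.89 on control 2, -0.80 on SF 3 and between -0.28 and 0.15 on the others. Within that list Plac8 was highest on control 2 (1.71) and Itgam lowest there (2.45). Their summed scaled signal (the sum of 2 to the power of the level) was 7.81 to 14.8 in sleep fragmented and 8.52 to 12.2 in control hearts. Such a sum leans on the brightest probe of its list, here Itgam (2.45 to 3.63), and is no measure of cell number. Ccr2, the defining receptor, was in neither group well above background on all arrays. Resident macrophage markers (9 of 9) had means of 0.48 on SF 2, 0.34 on control 2, -0.46 on SF 3 and -0.32 on control 1. Their sums were 17.7 to 36.7 and 19.1 to 28.6. The arrays low in the mean of these markers, SF 3 and control 1, were also the low arrays of Ccl6 and Ccl9. Not every marker of the list followed its mean. Cd163 was highest on SF 3 (-1.49) and lowest on control 2 (-2.52), and Csf1r was lowest on control 3 (2.79).

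The neutrophil markers (6 of 7) did not move as one. S100a8, S100a9 and Retnlg were at their highest on control 2, and Csf3r, Cxcr2 and Mmp8 at their lowest there. The list mean was thus highest on control 2 (0.63) and lowest on control 1 (-0.57), while the sum was lowest on control 2 (32.3) and highest on control 1 (46.0), with 38.2 to 43.6 in sleep fragmented hearts. Csf3r, the brightest probe of the list, made up most of that sum, at 4.76 on control 2 and 5.49 on control 1. B cell markers (4 of 5, Ms4a1 having failed the filter) had a mean of 1.93 on control 2 and at most -0.01 elsewhere, with sums of 0.682 to 0.952 and 0.523 to 7.27. Ms4a1 was well above background on 2 arrays and stood at 1.03 on control 2. Cd79a, which is in that mean, was not high on control 2 (-2.97) and was highest on SF 1 (-2.22). The plasma cell gene Jchain stood at 2.21 on control 2 and between -3.17 and -2.27 on the other arrays. T and natural killer cell markers passed for 3 of 7, Cd3g, Cd8a and Klrb1c having failed the filter. Their mean was 0.61 on SF 1 and between -0.18 and 0 elsewhere. Their sums were 3.86 to 5.64 and 3.91 to 4.90. Endothelial markers (6 of 6) lay between -0.17 and 0.17 on all arrays. Fibroblast markers (6 of 6) had means of 0.17, 0.42 and -0.09 on SF 1, SF 2 and SF 3 and -0.10, -0.28 and -0.11 on the controls, with sums of 81.5 to 122 and 78.5 to 84.8. Erythroid markers (3 measured) had means of 2.16, 0.62 and -0.06 on SF 1, SF 2 and SF 3 and -1.26, -0.59 and -0.86 on the controls, with sums of 74.5 to 259 and 41.1 to 64.2. These were the lists whose means went with the group: every sleep fragmented mean was the higher, for fibroblasts by a narrow margin. Each of the 3 erythroid markers separated the groups by itself, as 7.27% of all probes did. No fibroblast marker did so, and Col1a1 was at 4.13 on SF 3 and 4.56 on control 1. The part of these marker levels in the chemokine values was not tested.

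Atrial markers (2 of 3, Sln having failed the filter) had means of 3.82 on SF 2 and 3.06 on control 2, and adipocyte markers (3 of 4) of 2.27 and 1.59. Their sums were 1.11 to 188 against 1.02 to 133 for atrial and 66.0 to 118 against 72.5 to 79.0 for adipocyte markers, in sleep fragmented and control hearts. The adipocyte sums came mostly from Fabp4, which was highest on SF 1 (6.87), where Adipoq was at -2.65. Ccl6, Ccl9, Cxcl10 and Cxcl16 were each highest, within both groups, on SF 2 and control 2, and so was the B cell chemokine Cxcl13 (-0.61 on SF 2, 0.69 on control 2 and at most -3.13 elsewhere; chosen after its values were seen). The other arrays still differed in atrial Myl4, at 4.42 and 4.03 on SF 3 and control 3. On SF 1 and control 1 it was -0.05 and -0.12. With SF 2 and control 2 both left out, which leaves 2 arrays against 2, the log2 difference was -0.38 for Ccl2, -0.13 for Ccl7, -0.27 for Cxcl12 and 0.48 for Ccl8. Ccl9 and Cxcl9 turned to 0.09 and 0.08. The adjusted p was 1 for all 8 genes by limma, and 4 of the 8 differences were negative.

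Of 23 chemokine receptor genes with a probe, 12 passed the filter on dim probes, and 5 were well above background on no array. None passed the adjusted test, and 1 was higher and 0 were lower at an unadjusted p under 0.05, where 2.91% of all probes were called. The median log2 difference was 0.00 with 6 positive and 6 negative values. Cxcr4, the receptor of Cxcl12, stood at -1.86, -2.06 and -2.32 on SF 1, SF 2 and SF 3 and at -2.47, -2.81 and -2.51 on the controls. All 3 sleep fragmented levels exceeded all 3 control levels, a separation of the groups found for 7.27% of all probes in either direction. The difference of the means was 0.51 ± 0.20 (SE, log2; 95% interval 0.06 to 0.97), 1.43-fold, with an unadjusted p of 0.0297 and an adjusted p of 0.938 by limma, so it did not pass. It was positive in each scaling, with array weights and with each array left out (0.26 to 0.64). Its size went with the processing. It was 0.28 with quantile normalization, the authors' table or normexp, 0.3 with median scaling and 0.26 with array weights.

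Ackr3, the scavenger of Cxcl12, stood at 2.35, 2.81 and 2.87 on SF 1, SF 2 and SF 3 and at 2.79, 3.20 and 3.33 on the controls, with overlap. Its log2 difference was -0.43 ± 0.22 (SE; unadjusted p = 0.0902 by limma). For the Cxcl12 system, the sleep fragmented means were lower for the ligand's brighter probe and for Ackr3 and higher for Cxcr4. None of these differences passed. The other Cxcl12 probe was at -0.05 ± 0.18 (SE), and Ackr3 was at -0.06 with array weights. Cxcr6, the receptor of Cxcl16, had a difference of -0.19 ± 0.26, and Ackr2, which scavenges inflammatory CC chemokines, one of -0.15 ± 0.26 (SE).

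Ccr2 was well above background on 1 sleep fragmented and 2 control arrays, with levels of -3.89, -3.10 and -3.41 on SF 1, SF 2 and SF 3 and -3.27, -3.06 and -0.23 on the controls. Control 3 stood far above the other arrays, and it was among the high arrays of Ccl2, Ccl7 and Ccl12. Cxcr3 was well above background on 1 array of each group and was highest on control 2 (-1.62, against -4.40 to -3.13 elsewhere). Ccr3 was well above background on 2 arrays of each group, and Ccr1 and Ackr1 on none, so no fold is given for these 5 receptors. Of the other receptors with the smallest p, the neutrophil receptor Cxcr2 had a difference of 0.57 ± 0.27, Xcr1 of dendritic cells 0.40 ± 0.26, Cx3cr1 -0.44 ± 0.26 and Ccr7 -0.54 ± 0.44 (SE). Ccr7, which guides dendritic cells and lymphocytes, was highest on control 2 (-0.72), and without that array its difference was 0.0039.

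**Figure D5:**
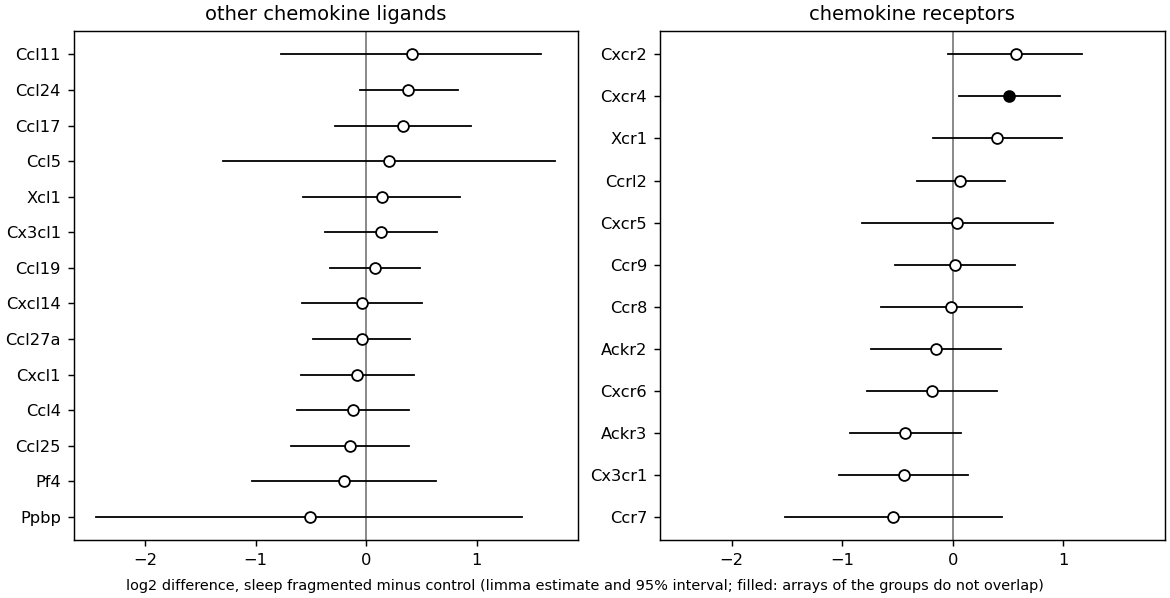
Log2 difference (sleep fragmented minus control) with the limma 95% interval for the other chemokine ligands and the chemokine receptors that passed the filter on dim probes. The 1 filled symbol, Cxcr4, marks the only gene shown whose arrays do not overlap between the groups; no gene passed after adjustment.

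Of 27 other chemokine ligands, 25 had a probe and 14 passed the filter, and 7 were well above background on no array. By limma 0 of the 14 had an unadjusted p under 0.05, with 7 positive and 7 negative values and a median log2 difference of 0.02. The smallest p belonged to the eosinophil chemokine Ccl24 (0.38 ± 0.20, SE), followed by Ccl17 (0.33 ± 0.27), the eotaxin Ccl11 (0.41 ± 0.52), Ccl25 (-0.15 ± 0.24), the platelet chemokine Ppbp (-0.51 ± 0.85) and the endothelial Cx3cl1 (0.13 ± 0.22). Another probe of Ccl25 gave 0.65 ± 0.31, with the opposite sign. Single arrays turned the signs of Ccl11 (-0.05 without control 3), Ppbp (0.66 without control 2) and Ccl25 (0.08 without control 2). Under median scaling Cx3cl1 was at -0.08.

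Of 10 genes that process chemokines or carry the receptor signal, 7 passed the filter, 0 had an unadjusted p under 0.05 by limma, and the median log2 difference was 0.01. Dpp4, a protease that inactivates Cxcl12 and Cxcl10, had a difference of 0.56 ± 0.44 (SE), which rested on SF 2 and was -0.0036 without it. The receptor kinase gene Grk2 was at -0.26 ± 0.21, the arrestin gene Arrb2 at 0.20 ± 0.22 and Mmp2, another protease that cleaves chemokines, at 0.19 ± 0.26 (SE). Adam17, which sheds Cxcl16, was at -0.09 ± 0.18 and the G protein gene Gnai2 at -0.07 ± 0.24 (SE). With median scaling Arrb2 and Mmp2 turned to -0.01 and -0.02.

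The cytokines and transcription factors that induce chemokine genes, and their co-targets, were taken as a list of 19 genes, of which 12 passed the filter. By limma 0 passed the adjusted test, 0 were higher and 2 were lower at an unadjusted p under 0.05 (2.91% over all probes), and the median log2 difference was 0.05. The groups were separated for these 2 genes of the 12, and for 7.27% of all probes. Irf9, the DNA-binding subunit of the factor that occupies interferon-stimulated response elements, stood at 0.71, 1.05 and 0.76 on SF 1, SF 2 and SF 3 and at 1.65, 2.24 and 1.87 on the controls. The groups do not overlap, with a log2 difference of -1.08 ± 0.21 (SE; unadjusted p = 0.000627, adjusted p = 0.856 by limma). Nfkb1, an NF-kappaB subunit, stood at -0.34, -0.11 and -0.11 on SF 1, SF 2 and SF 3 and at 0.49, 0.15 and 0.12 on the controls, a difference of -0.44 ± 0.19 (SE; unadjusted p = 0.0445, adjusted p = 0.938 by limma). Its groups do not overlap either, but another Nfkb1 probe gave 0.10 ± 0.28.

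The other genes of that list with the smallest p had no common direction. The NF-kappaB inhibitors Tnfaip3 and Nfkbia were at -0.51 ± 0.30 and 0.49 ± 0.34 (SE), Irf1 at -0.28 ± 0.19 and the adhesion molecule gene Vcam1 at 0.52 ± 0.41. Without SF 2 the difference of Vcam1 was 0.0056. The cytokine genes Tnf, Il6 and Ifnb1 and the adhesion molecule gene Sele were well above background on no array. In neither Cxcl9 nor Cxcl10 did the groups separate as they did for Irf9.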

How the data were processed

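Total RNA of heart ventricles was measured on 6 arrays, 3 per group. Per the file headers, the processed signals are intensity values on a linear scale, with background subtracted and spatial trends removed, from Agilent Feature Extraction (version 11.0.1.1 there and 10.5.1.1 in the submitters' processing notes) on array design 026655. Spot marks of 0 or 1 (well above background, saturated, outlying) were deposited as other values. A table of log2 values was also deposited by the authors, with processing steps not given in the sources used here. All 6 columns of that table have a median of 5.54 and each followed its array's log2 signal (r of at least 0.999), so its scale is log2 and genes were not centred. That table served as an alternative. Its chemokine differences nearly matched those with quantile normalization, at -0.49 for Ccl2 and -0.55 for Ccl7 in both. The authors' table and quantile normalization are therefore not separate checks.

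From the processed intensity, control and outlier spots (180 to 240 per array) were dropped and no spot was saturated (0 on each array). Log2 values were averaged per probe, and each array's 75th percentile over non-control probes was subtracted. A probe was kept if it was well above background, on most of its spots, on every array of at least 1 group; 25228 of 39429 were (64%). Probes were named through RefSeq accessions matched to a gene table of GRCm38.p6, which named 27234 (69.1%). The array was designed on mm9, so no gene positions are given; the promoter windows are from a GRCm38.p6 table that held 7 of the 10 chemokines. The brightest kept probe stood for a gene. The comparison used limma 3.58.1 in R 4.3.3 (lmFit, then eBayes, with 5.02 prior degrees of freedom); tests were two-sided and p-values were adjusted by Benjamini-Hochberg over the kept probes. The fit was tested on simulated data. The number of arrays limits the precision. The chemokines and the lists were chosen with earlier results of these data known. Named genes were all 10 chemokines, their receptors, up to 6 genes per list with the smallest p, and the 3 genes closest to each chemokine that spanned 1 log2 unit; others are said to be chosen after their values were seen, and 3 genes of the rule and the lists are not reported here. Alternatives were another normalization, filter, prior or source of values, array weights (estimated over probes measured on all arrays), a replicate block and each array left out; normexp was run on median spot signals in place of the mean signals planned.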

Additional observations from a re-analysis of the deposited data

How the results depend on the processing

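None of the 8 genes compared passed an adjusted p of 0.05 under any of the 16 other settings of the fit (0 in each; adjusted p from 0.144 to 1), with limma throughout. The difference stayed negative for Ccl2 (-0.71 to -0.33), Ccl7 (-0.64 to -0.10) and Cxcl12 (-0.50 to -0.10, and -0.05 on its other probe). Ccl8 turned to -0.02 with quantile normalization, -0.16 with median scaling and -0.02 with the authors' table. With array weights Ccl6, Ccl9 and Cxcl16 turned to 0.11, 0.14 and -0.06. With both arrays high in atrial markers left out, chosen after seeing the data, Ccl9 and Cxcl9 turned to 0.09 and 0.08, and the other Cxcl9 probe gave 0.11. Leaving out each array gave -0.52 to 0.28 for Ccl6, -0.41 to 0.50 for Ccl8, -0.27 to 0.23 for Ccl9, -0.58 to 0.0043 for Cxcl9 and -0.06 to 0.43 for Cxcl16. The causes were not tested. The scaling moved the median log2 difference of all kept probes from 0.08 to 0 (quantile) and -0.13 (median), and the share higher among probes at an unadjusted p under 0.05 and 1.5-fold from 65.2% to 24.5% and 13.8% (24.9% with the authors' table, 43.6% with normexp and 86.1% with no filter). Relative to that median Ccl2 lay at -0.58, -0.49 and -0.58 and Ccl7 at -0.49, -0.55 and -0.49.

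Chemokines at an unadjusted p under 0.05 numbered 2 with quantile normalization, the authors' table or array weights (Cxcl9 at -0.58 and Cxcl12 at -0.44 for the last), 3 with median scaling and 0 with no filter or without the atrial-high arrays; with single arrays left out they numbered 0 to 2. Of all probes, 3 passed the adjusted test with normexp, 53 with array weights, 4 with the replicate block and 5 without the atrial-high arrays. Probes at an unadjusted p under 0.05 and 1.5-fold numbered 179, 1266, 848 and 758 in these settings, 1413 with no filter and 338 to 2714 with single arrays left out, the highest without control 3; without SF 2 there were 1052. Other ligands and receptors past both limits numbered 1 with median scaling, no filter or array weights, 3 without the atrial-high arrays, and 0 to 4 with single arrays left out. With the replicate block, 2 receptors were higher and 1 was lower at an unadjusted p under 0.05 (Cxcr2, Cxcr4 and Ackr3), 2 inducers were higher (Nfkbia and Vcam1) and 3 lower (Irf9, Nfkb1 and Tnfaip3), and Ccl24 and Dpp4 were higher. Ccl2 with the block was at -0.50 (unadjusted p = 0.0443, adjusted p = 0.603). Same-numbered arrays correlated at 0.06, 0.55 and 0.21 in their deviations from the group means. SF 1 correlated best with control 3 (0.36), so the main fit did not take the numbers to pair the samples. Atrial markers did go with the number. Myl4 on SF 1, SF 2 and SF 3 was -0.05, 7.46 and 4.42. On control 1, control 2 and control 3 it was -0.12, 7 and 4.03. The p-values of the main fit leave this match out of account. The barcode field splits the arrays as the replicate number does, so a slide block is the replicate block and was not run separately.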
